A study of Mus musculus with 18 samples.

Results

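The response of brown adipocytes to SR-3420, a synthetic ligand that binds ABHD5 and frees it to activate the lipase ATGL, was compared between cells depleted of ABHD5 and the same cells with ABHD5 restored. The cells were 1 mouse brown preadipocyte line differentiated in culture, with indomethacin early in differentiation. All of them carried a stable lentiviral shRNA against Abhd5 (genotype label ABHD5 KD without doxycycline and WT with it) and an mCherry-tagged, shRNA-resistant ABHD5 that doxycycline (Dox, labelled as 1 µg/ml over 24 to 48 h) switches on. Cells without or with Dox were kept for 3 h with the vehicle DMSO or with SR-3420 at 20 µM, which gives 4 groups of 3 libraries, and these 12 of the 18 libraries of the series were used. The other 6 libraries, from cells given 10 nM isoproterenol (ISO, a β-adrenergic agonist) without or with Dox, entered only the comparison of ligand and agonist. Every restored library also had Dox, so the agent and the protein cannot be told apart. The rule took the interaction, that is the log2 fold change by SR-3420 with Dox minus that without Dox, and a positive value means that SR-3420 raised a gene more, or lowered it less, in restored cells. Of 17672 genes in the deposited table, 9821 had enough counts to be tested, and 60 of them were called at an adjusted p of 0.05 and a log2 size of 1.

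Lipolysis frees fatty acids from stored triglyceride, and in brown adipocytes these acids are fuel, activators of uncoupling and ligands of the PPAR receptors. ABHD5 is held by perilipins on the lipid droplet until a β-adrenergic signal, or a ligand such as SR-3420, lets it reach ATGL. Cells that meet metabolic or amino acid stress raise a gene programme under the transcription factor ATF4, and cells with stressed lysosomes raise autophagy and lysosome genes under TFEB and TFE3, which the FLCN and FNIP proteins help to keep out of the nucleus.

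The deposited values were read counts whose counted length followed the introns of each gene, so they track unspliced RNA more than mature mRNA. They are given below as CPM, counts scaled to a common library total with edgeR's TMM factors. The 12 libraries held 689910 to 1956565 counts, with a median of 30 to 87 counts per tested gene. The first SR-3420 library with Dox stood apart. Its 4 most abundant genes took 24.3% of its counts (16.4% to 20.9% in the other 11), and its TMM factor was 0.754 (0.958 to 1.10). The counts of Abhd5 checked the labels: 48.2, 57.6 and 56.3 CPM in DMSO and 79.3, 72.5 and 80.6 CPM with SR-3420 without Dox, against 597, 672 and 499 CPM in DMSO and 586, 862 and 676 CPM with SR-3420 with Dox. Dox in DMSO changed Abhd5 by 3.46 (SE 0.18, edgeR adjusted p = 9.67e-13), and every library with Dox lay above every library without. For Abhd5 the counted length was 24026 bases, beside 26658 bases of intron and 3250 of exon in the annotation, and whether reads of the construct add to its counts was not tested. The interaction of SR-3420 for Abhd5 itself was -0.26 (SE 0.24, edgeR's adjusted p = 0.701). Adipocyte markers gave a summed 3642 to 4286 CPM in DMSO and 5311 to 5833 CPM with SR-3420 without Dox, and 4412 to 4977 CPM in DMSO and 6661 to 8083 CPM with SR-3420 with Dox. The brown fat markers Ucp1 (0 to 5 counts), Elovl3 (0 to 2) and Cox8b (0 to 5) were near 0 in all 12 libraries, whereas Prdm16 (13 to 77), Ebf2 (26 to 149), Ppargc1a (15 to 166) and Cidea (8 to 52), of the same list, were counted in every library. Fibroblast markers gave 1724 to 2496 CPM over all 12. In such bulk samples a change in the cells' makeup and a change in RNA per cell cannot be told apart, and the part of the marker levels in the results was not tested.

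Far more genes answered SR-3420 once ABHD5 was restored. Without Dox, 25 genes rose and 3 fell past both limits (0.285% of the genes tested), a total of 28 that became 17 without the first DMSO library without Dox. With Dox, 208 rose and 105 fell (3.19%). The interaction was called for 45 genes with a positive and 15 with a negative value (0.611% of genes tested, 0.458% positive and 0.153% negative). Without the limit on size the counts were 57 and 23 (0.58% and 0.234%), and 1231 genes had an unadjusted p under 0.05. The split moved with the scaling: upper-quartile factors gave 36 positive and 29 negative calls, and library totals alone gave 16 and 22, under which the median of all genes shifted to -0.145 from -0.013. All 60 genes kept their sign under each of these scalings, and the 15 negative calls were all kept. With the replicate number of the libraries as a block in the fit, 140 genes were called (86 positive, 54 negative), all 60 among them. Without the first SR-3420 library with Dox, 44 genes were called (30 positive, 14 negative), 37 of them among the 60. The count fell to 30 without the third SR-3420 library without Dox, to 31 without the third DMSO library with Dox and to 36 without the first DMSO library without Dox. The first gene outside the limit was Mvd, at -2.14, and the last inside was Ppargc1b, at 1.33, with adjusted p of 0.0509 and 0.0475.

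**Figure D1:**
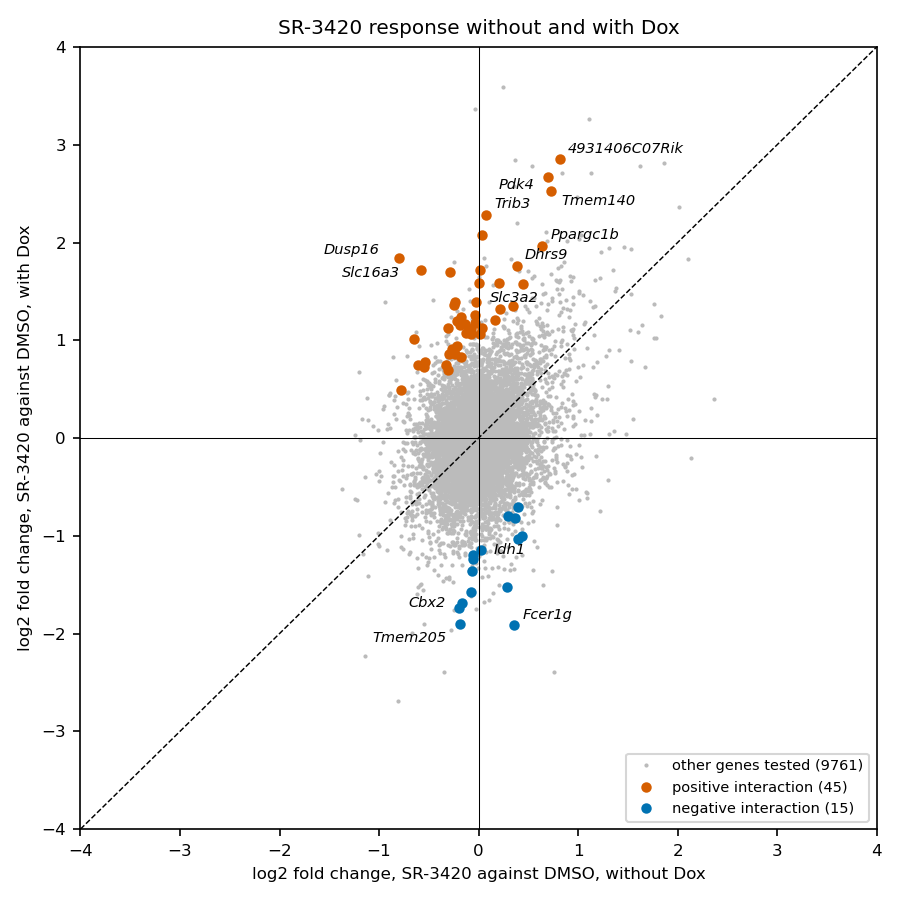
Log2 fold change by SR-3420 against DMSO without Dox (horizontal axis) and with Dox (vertical axis), 1 point per gene tested, n = 3 libraries per group. The 45 positive genes lie above the dashed line of equal response at -0.80 to 0.82 without Dox, and the 15 negative genes lie below it at -0.19 to 0.44 without Dox.

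The positive genes were mostly silent to the ligand in depleted cells. Their median change by SR-3420 was -0.13 without Dox and 1.19 with Dox, beside -0.01 and -0.03 over all genes tested. Since both changes enter the interaction, the counts that follow describe the calls and test nothing further. Of the 45, 44 passed as raised with Dox (all except Ascc3), and only 4931406C07Rik and Tmem140 passed as raised without it. In 40 of the 45, all 3 SR-3420 libraries with Dox lay above the other 9, an arrangement seen in 7.23% of genes tested. The other 5 were Impact, Prkca, Tmem183a, Adnp2 and Rbm12b2. The 15 negative genes had a median change of 0.03 without Dox and -1.24 with it. All 15 fell with Dox, none passed without it, and in all 15 the 3 SR-3420 libraries with Dox lay below the other 9 (5.73% of genes tested). The change with Dox in DMSO had medians of -0.04 for the positive and 0.12 for the negative genes. Rbm12b2 alone passed there, at -0.92 (adjusted p = 0.0432), where 1.18% of genes tested rose and 0.0713% fell at that threshold.

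**Figure D2:**
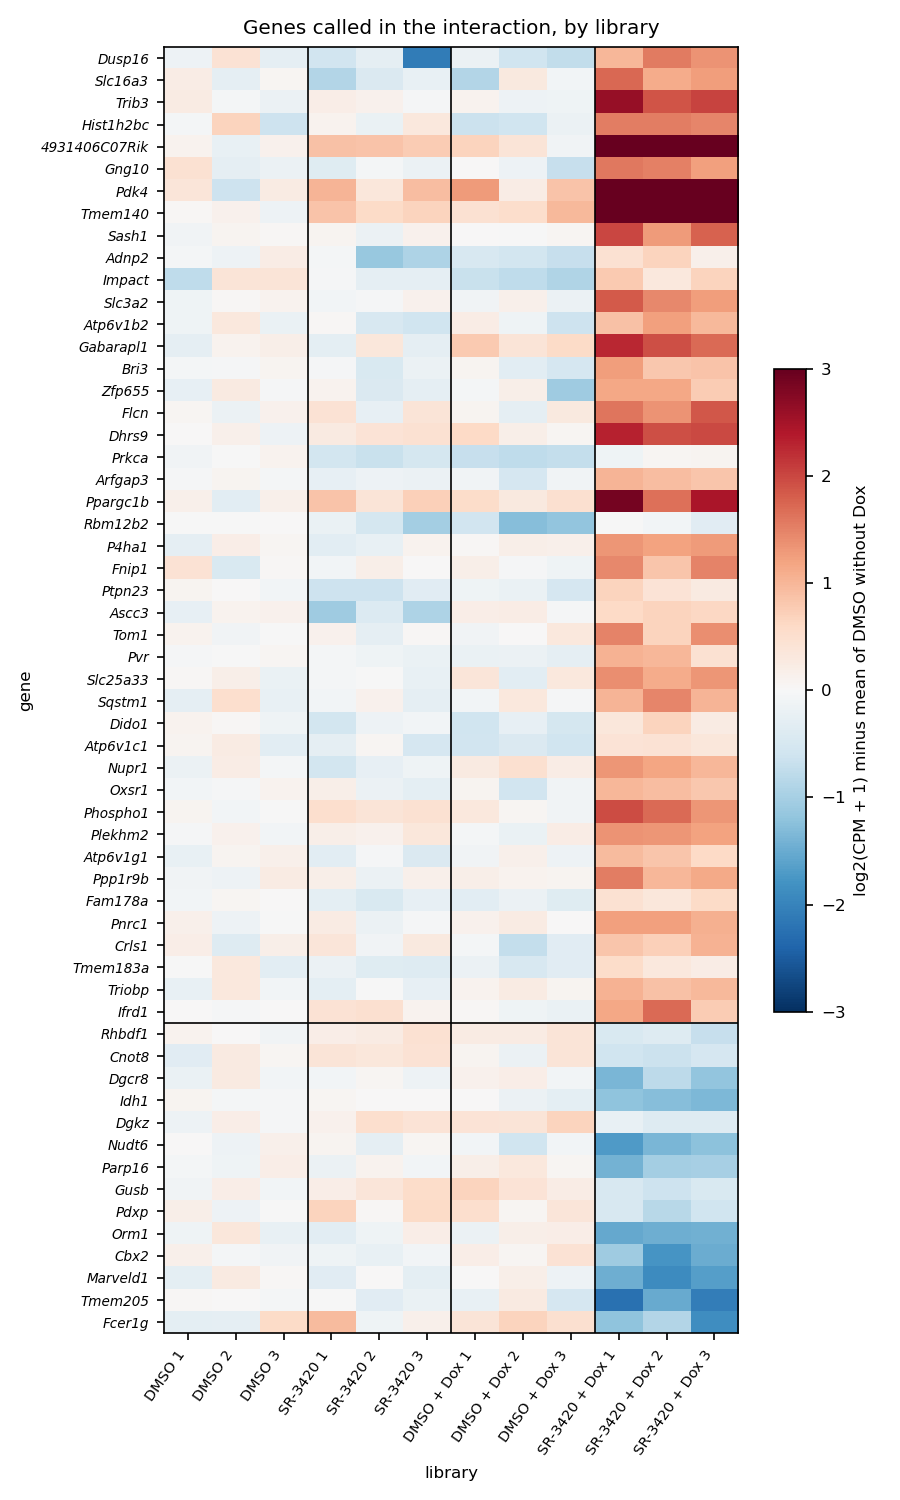
Of the 60 called genes, 58 (rows, ordered by interaction) in the 12 libraries (columns), coloured by log2(CPM + 1) minus the gene's mean in DMSO without Dox, with the scale ending at -3 and 3. The last 3 columns, SR-3420 with Dox, carry the colour: red for the 44 positive genes above the line and blue for the 14 negative genes below it.

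How firmly each call stands differed between genes. In 12 fits that each left out 1 library, all 60 genes kept their sign, and 21 kept their call in every fit. These were Plekhm2, Fam178a, Slc3a2, Bri3, 4931406C07Rik, P4ha1, Pdk4, Nupr1, Hist1h2bc, Arfgap3, Atp6v1c1, Pvr, Flcn, Trib3, Sash1, Dhrs9 and Tmem140 among the positive genes, and Idh1, Cbx2, Dgcr8 and Parp16 among the negative. For most of the other 39 the number of fits that kept the call is given where the gene is described, and 17 of the 39 were kept in under 6.

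Genes of the amino acid response that ATF4 governs were among the positive genes. Slc3a2 (chromosome 19, 8781372 to 8797859, minus strand of mm9), which encodes the heavy chain shared by several amino acid exchangers, gave 105, 117 and 123 CPM in DMSO and 108, 112 and 125 CPM with SR-3420 without Dox, against 107, 128 and 101 CPM in DMSO and 413, 313 and 275 CPM with SR-3420 with Dox. Its 9 other libraries all sat between 101 and 128 CPM and the 3 restored, ligand-treated ones stood clear above them, an interaction of 1.58 (SE 0.22, edgeR's adjusted p = 0.00031). Trib3, a pseudokinase that ATF4 induces and that feeds back on it, gave 22.7, 18.3 and 16.7 CPM in DMSO and 21.9, 20.8 and 18.5 CPM with SR-3420 without Dox, against 20.7, 17.1 and 17.4 CPM in DMSO and 122, 72.7 and 80.8 CPM with SR-3420 with Dox. Its interaction of 2.21 (SE 0.36, edgeR's adjusted p = 0.00216) came with a change of 0.08 without Dox. Nupr1, a small nuclear protein of stressed cells, gave 58.2, 77.3 and 63.6 CPM in DMSO and 45.0, 55.9 and 60.4 CPM with SR-3420 without Dox, against 79.4, 91.7 and 77.6 CPM in DMSO and 166, 150.4 and 133 CPM with SR-3420 with Dox. In Nupr1 the SR-3420 libraries without Dox overlapped those in DMSO, and the interaction was 1.15 (SE 0.23, edgeR's adjusted p = 0.0132).

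Of 48 genes on the amino acid and ATF4 list, 38 were tested and these 3 passed, all upward (0.58% of all genes tested passed upward), with a median interaction of 0.58 beside -0.01 for all genes tested. The list's median change was 0.00 without Dox and 0.70 with Dox, where 19 of the 38 rose and none fell (6.65% and 3.82% of all genes tested). Its median interaction was 0.38 without the first SR-3420 library with Dox. Among the 35 that did not pass, several had large estimates with wide errors. Asns, which makes asparagine, gave 35.5, 46.4 and 28.1 CPM in DMSO and 32.6, 38.6 and 37.1 CPM with SR-3420 without Dox, against 32.1, 55.4 and 20.8 CPM in DMSO and 173, 79.7 and 79.8 CPM with SR-3420 with Dox, and its 1.64 (SE 0.42, edgeR's adjusted p = 0.0636) lay outside the limit, with 1 ligand-treated library well above its 2 replicates. It passed with DESeq2 (adjusted p = 0.0271) and, in edgeR, with the replicate number as a block (0.0023). It also passed without the second DMSO library with Dox (0.0205) or the second (0.0283) or the third (0.0377) SR-3420 library with Dox. With no filter on low counts it passed (3.33e-05) at an SE of 0.29. Its interaction was 1.17 without the first SR-3420 library with Dox. Cth, of cysteine synthesis, was at 1.49 (adjusted p = 0.0719), and Atf3, a stress-induced transcription factor counted at 1.16 to 5.62 CPM in the 9 other libraries, was at 3.40 (adjusted p = 0.0742) with 35.9, 44.4 and 19.4 CPM in the restored, ligand-treated cells. The aminoacyl-tRNA synthetases Tars, Aars, Nars and Sars were at 0.92, 1.06, 0.79 and 0.79, none of which passed. Cth, Atf3 and the synthetases were picked after their values were seen.

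Genes of lysosomes and autophagy were also among the positive genes. Flcn, which with its partner Fnip1 acts on the lysosomal surface upstream of TFEB and TFE3, gave 74.6, 63.3 and 78.2 CPM in DMSO and 97.7, 60.6 and 93.4 CPM with SR-3420 without Dox, against 75.5, 59.7 and 88.0 CPM in DMSO and 221, 184 and 265 CPM with SR-3420 with Dox. The interaction of Flcn was 1.38 (SE 0.26, edgeR's adjusted p = 0.0107), and that of Fnip1 was 1.30 (SE 0.27, edgeR's adjusted p = 0.0202) from 87.3, 46.4 and 65.7 CPM in DMSO and 60.4, 73.1 and 65.3 CPM with SR-3420 without Dox, against 73.0, 62.9 and 59.1 CPM in DMSO and 177, 116 and 181 CPM with SR-3420 with Dox. Both genes thus had 9 libraries at one level and 3 at a higher one. Sqstm1, the autophagy receptor p62, gave 116, 195 and 118 CPM in DMSO and 131, 153 and 115 CPM with SR-3420 without Dox, against 131, 174 and 136 CPM in DMSO and 283, 384 and 281 CPM with SR-3420 with Dox, with an interaction of 1.19 (SE 0.25, edgeR's adjusted p = 0.0221). Gabarapl1, an ATG8-type protein of the autophagosome membrane, gave 22.7, 29.5 and 31.3 CPM in DMSO and 22.5, 35.1 and 22.6 CPM with SR-3420 without Dox, against 48.3, 36.3 and 41.7 CPM in DMSO and 137, 109 and 92.0 CPM with SR-3420 with Dox, and 1.42 (SE 0.32, edgeR's adjusted p = 0.0272). Gabarapl1 also stood somewhat higher in DMSO with Dox than without (0.64, adjusted p = 0.298), which did not pass. The calls were kept in 12 of 12 fits that left out 1 library for Flcn, 8 for Fnip1, 7 for Sqstm1 and 6 for Gabarapl1, whose interaction was 1.26 (adjusted p = 0.0683) without the first SR-3420 library with Dox.

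Of 28 autophagy and lysosome genes, 25 were tested and these 4 passed, none downward (0.58% and 0.234% of all genes tested passed upward and downward), with a median interaction of 0.32. The list's median change was 0.03 without Dox and 0.37 with Dox. Off the list, the lysosomal glucuronidase Gusb was called the other way, at -1.43, and kept in 4 of 12 fits. Plekhm2, an adaptor that links lysosomes to kinesin and is not on the list, gave 71.0, 80.1 and 68.8 CPM in DMSO and 82.3, 80.2 and 92.6 CPM with SR-3420 without Dox, against 70.1, 64.0 and 85.7 CPM in DMSO and 189, 185 and 169.8 CPM with SR-3420 with Dox and an interaction of 1.10 (SE 0.21, edgeR's adjusted p = 0.0107). The proton pump that acidifies lysosomes, the V-ATPase, was looked up after 3 of its subunits were seen among the called genes. Of 23 subunit and accessory genes in the table, 14 were tested. Of these, 13 had a positive estimate and 3 passed upward (48.7% and 0.58% of all genes tested). The 3 were Atp6v1b2, which overlaps Slc18a1, at 1.42 (adjusted p = 0.0236), Atp6v1c1 at 1.16 (adjusted p = 0.0132) and Atp6v1g1 at 1.10 (adjusted p = 0.0322). Atp6v1c1 gave 106, 118 and 80.2 CPM in DMSO and 82.9, 104 and 70.1 CPM with SR-3420 without Dox, against 67.1, 73.6 and 66.0 CPM in DMSO and 134, 135 and 127 CPM with SR-3420 with Dox, so that its restored, ligand-treated libraries exceeded the highest other library, at 118 CPM, by a small margin. The calls were kept in 12, 7 and 4 of 12 fits for Atp6v1c1, Atp6v1b2 and Atp6v1g1. The median over the 14 was 0.34, with 0.40 for the change with Dox.

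The E-box CACGTG, the core of the sites that TFEB and TFE3 bind, was looked for in the 250 bases before the start of each gene of the table on mm9, the build of the files. The start sites are those of the table, and 17669 of 17672 genes gave a full window. It was present in 9 of 45 positive genes (20%), in none of the 15 negative genes, in 8 of 25 tested autophagy and lysosome genes (32%) and in 7.45% of all windows, or 8.47% of the 9819 windows of tested genes. The sequence reads the same on both strands. Windows are printed for 3 positive genes that hold the E-box and no annotated exon, 5′ to 3′ on the strand of the gene, with the E-box in capitals. They are 4931406C07Rik (chr9:15110893-15111142, minus strand), Fnip1 (chr11:54251431-54251680, plus strand) and Fam178a (chr19:45005359-45005608, plus strand).
4931406C07Rik: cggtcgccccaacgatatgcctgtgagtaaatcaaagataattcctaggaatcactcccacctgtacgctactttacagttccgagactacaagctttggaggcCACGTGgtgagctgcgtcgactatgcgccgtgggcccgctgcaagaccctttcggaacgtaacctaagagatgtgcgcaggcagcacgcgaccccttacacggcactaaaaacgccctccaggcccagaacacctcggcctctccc
Fnip1: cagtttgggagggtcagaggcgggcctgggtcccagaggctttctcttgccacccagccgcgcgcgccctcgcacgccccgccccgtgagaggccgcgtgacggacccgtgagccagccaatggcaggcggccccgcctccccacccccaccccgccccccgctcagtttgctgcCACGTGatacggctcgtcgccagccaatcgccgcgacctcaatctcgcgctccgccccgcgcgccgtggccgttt
Fam178a: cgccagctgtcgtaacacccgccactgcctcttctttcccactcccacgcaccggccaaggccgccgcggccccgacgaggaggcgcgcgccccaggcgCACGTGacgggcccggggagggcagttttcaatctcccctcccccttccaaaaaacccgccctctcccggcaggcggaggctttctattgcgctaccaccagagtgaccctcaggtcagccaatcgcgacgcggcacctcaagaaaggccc
The other positive genes with an E-box in the window were Atp6v1g1, Crls1, Nupr1, Phospho1, Pvr and Slc25a33. The full lysosomal element (CLEAR), a longer palindrome around the E-box, was in none of the 60 windows and in 0.396% of all (0.611% of those of tested genes). For the ATF4 element TGATGCAA, searched on both strands, 1 of 45 positive genes had a match (2.22%), against 6 of 38 tested genes of the amino acid list (15.8%) and 0.572% of all windows (0.468% of those of tested genes). The match was in Nupr1, 110 to 103 bases before its start in the table, where all 250 bases of the window lie in an exon of Nupr1 in the annotation, and is printed with its neighbours (chr7:133769076-133769105, minus strand), the element in capitals as its reverse complement.
Nupr1: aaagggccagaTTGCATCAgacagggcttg
The PPAR element (PPRE) was in none of the 60 windows and in 0.0566% of all (0.0407% of those of tested genes), and the cAMP element TGACGTCA was in 3 positive genes (6.67%), Flcn, Oxsr1 and Tmem183a, in 1 negative gene (6.67%), Gusb, and in 2.24% of all (2.74% of those of tested genes). The antioxidant element TGACNNNGC, on either strand, was in 9 positive genes (20%), 2 negative genes (13.3%) and 11.1% of all windows (11.8% of those of tested genes), and its letters can overlap those of the cAMP element. The sterol element TCACNCCAC and the element of the unfolded protein response (ERSE) were in none of the 60 (0.973% and 0.147% of all, 0.978% and 0.194% of those of tested genes). The matches are letters in a window and say nothing of binding.

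Some lipid genes rose with SR-3420 in depleted cells. Pdk4, the kinase that shuts off pyruvate dehydrogenase and a PPAR target, was 1 of 29 tested PPAR targets and passed in the interaction, as none of the other 28 did (0.58% of all genes tested passed upward). It gave 106, 53.4 and 96.9 CPM in DMSO and 168, 103 and 157 CPM with SR-3420 without Dox, against 201, 96.0 and 148 CPM in DMSO and 1162, 924 and 823 CPM with SR-3420 with Dox, an interaction of 1.97 (SE 0.33, edgeR's adjusted p = 0.00216), and its change without Dox was 0.70 (adjusted p = 0.262). The 29 PPAR targets had a median change of 0.62 without Dox and 0.86 with Dox, and a median interaction of 0.30. Of them 7 rose without Dox and 21 with Dox, and none fell in either (0.794% and 6.65% of all genes tested rose). Plin2, a lipid droplet coat protein, gave 73.7, 138 and 56.3 CPM in DMSO and 154, 223 and 143 CPM with SR-3420 without Dox, against 155, 162 and 103 CPM in DMSO and 601, 742 and 405 CPM with SR-3420 with Dox. Its change was 1.01 (adjusted p = 0.0579) without Dox and 2.04 (adjusted p = 1.16e-06) with Dox. Yet its interaction of 1.03 (SE 0.34, edgeR's adjusted p = 0.161) did not pass. Leaving out the second DMSO library without Dox gave 0.62, and leaving out the third gave 1.28. The interaction passed with the replicate number as a block (adjusted p = 0.000484) and with no filter on low counts (0.00212, at an SE of 0.22). Acsl1, which activates long-chain fatty acids, rose by 1.35 without Dox and by 1.72 with Dox, and its interaction was 0.36 (adjusted p = 0.562). That interaction was 0.20 without the second DMSO library without Dox and 0.54 without the second with Dox.

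Of 30 tested fatty acid oxidation genes, none passed in the interaction in either direction, 5 rose without Dox, and 14 rose and 1 fell with Dox. Their medians were 0.40 and 0.43, and the median interaction was 0.05, which became -0.08 with library totals or without the second SR-3420 library with Dox, -0.02 with upper-quartile factors and 0.10 without the third SR-3420 library without Dox. None of 15 lipolysis and lipid droplet genes and none of 19 triglyceride synthesis genes passed, with median interactions of 0.19 and 0.20 (0.06 and 0.07 with library totals). The lipolysis median was 0.08 without the third DMSO library with Dox and 0.36 without the first DMSO library without Dox. Slc27a1, a fatty acid transport protein on the triglyceride list chosen after its value was seen, had one of the negative estimates. It gave 162, 135 and 206 CPM in DMSO and 366, 323 and 470.5 CPM with SR-3420 without Dox, against 249, 212 and 322 CPM in DMSO and 287, 255 and 378 CPM with SR-3420 with Dox, so that SR-3420 changed it by 1.19 (adjusted p = 0.000541) without Dox and by 0.24 (adjusted p = 0.46) with Dox. Its interaction of -0.95 (SE 0.25, edgeR's adjusted p = 0.0712) did not pass. Over all genes, 78 rose and 6 fell without Dox and 653 rose and 375 fell with Dox at an adjusted p of 0.05 (0.794%, 0.0611%, 6.65% and 3.82% of genes tested). The 2 arms share no library. They shared 65 raised genes, 83.3% of those raised without Dox and 9.95% of those raised with Dox. Of the 78, 76 had a positive change with Dox, with medians of 0.85 without and 1.04 with Dox, and 3 passed with a positive interaction and none with a negative one.

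Regulators of oxidative genes gave mixed results. Ppargc1b, a coactivator of mitochondrial genes, gave 58.2, 42.2 and 58.4 CPM in DMSO and 95.3, 68.9 and 87.0 CPM with SR-3420 without Dox, against 77.5, 64.0 and 73.0 CPM in DMSO and 390.0, 167 and 288 CPM with SR-3420 with Dox. It was called at 1.33 (SE 0.33, edgeR's adjusted p = 0.0475), but only 2 of 12 fits kept the call, and without the first SR-3420 library with Dox, its highest, the interaction was 1.03 (adjusted p = 0.0999). Its relative Ppargc1a, at 1.09 (adjusted p = 0.277), and the receptor Ppara, at 1.59 (adjusted p = 0.295), did not pass. Ppargc1a was 0.63 without the first SR-3420 library with Dox. Both passed with the replicate number as a block (adjusted p = 0.0217 and 0.00419). With no filter on low counts they passed too (0.0292 and 0.00457), at an SE of 0.29 and 0.36, where the reported fit gave 0.44 and 0.65. Ppara gave 15.5, 8.43 and 26.1 CPM in DMSO and 52.1, 17.2 and 45.1 CPM with SR-3420 without Dox, against 18.7, 6.4 and 17.4 CPM in DMSO and 137, 39.4 and 121 CPM with SR-3420 with Dox, and the second library was the lowest in each of the 4 groups. Cidea, a droplet protein of brown fat, was at 1.31 (adjusted p = 0.154, and 0.0375 with the block). Hilpda, an inhibitor of ATGL, was at 3.34 (adjusted p = 0.338) from 0 to 2.96 CPM in the 9 other libraries and 22.4, 28.3 and 17.4 CPM in restored cells with SR-3420. Pck1 (glyceroneogenesis), Angptl4 (an inhibitor of lipoprotein lipase) and Gyk (glycerol kinase) were at 1.16 (adjusted p = 0.588), -0.19 (adjusted p = 0.875) and 0.01 (adjusted p = 0.992). Pck1 was 0.86 without the third and 2.05 without the first SR-3420 library without Dox. Ucp1 had too few counts to be tested. Crls1, which makes the mitochondrial lipid cardiolipin, was called at 1.04 (adjusted p = 0.0338) and kept in 4 of 12 fits.

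**Figure D3:**
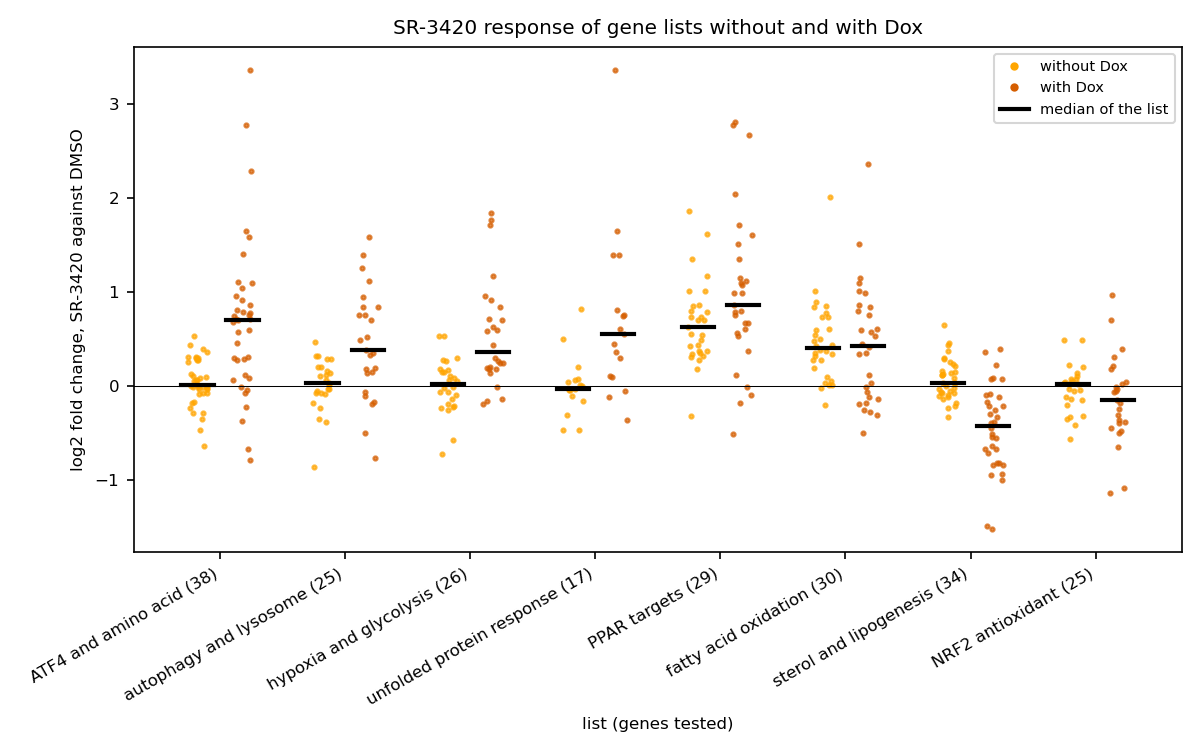
Log2 fold change by SR-3420 against DMSO for each tested gene of 8 lists (points, with numbers of genes on the axis), without Dox (left of each pair) and with Dox (right), with the median of each list as a bar. The ATF4 list moves from a median of 0.00 to 0.70 and the sterol list from 0.03 to -0.43, whereas the PPAR list is already at 0.62 without Dox and at 0.86 with it.

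Genes known from low oxygen and glycolysis were also among the members. P4ha1, a collagen prolyl hydroxylase, gave 70.1, 97.0 and 87.5 CPM in DMSO and 66.9, 72.5 and 91.0 CPM with SR-3420 without Dox, against 85.8, 94.9 and 93.8 CPM in DMSO and 212, 196 and 206 CPM with SR-3420 with Dox, with a resulting interaction of 1.31 (SE 0.21, edgeR's adjusted p = 0.00211). Slc16a3, the lactate exporter MCT4, gave 20.0, 14.1 and 17.7 CPM in DMSO and 8.88, 12.5 and 14.5 CPM with SR-3420 without Dox, against 8.88, 21.3 and 16.2 CPM in DMSO and 59.2, 38.4 and 41.9 CPM with SR-3420 with Dox, an interaction of 2.29 (SE 0.45, edgeR's adjusted p = 0.0132) with its call kept in 11 of 12 fits. The histone demethylase Kdm3a passed without reaching a log2 size of 1, at 0.93 (SE 0.19, edgeR's adjusted p = 0.0187). Kdm3a missed the threshold in 4 of 12 fits that left out 1 library (adjusted p up to 0.067, without the third SR-3420 library without Dox; the others lacked the first or the third DMSO library without Dox or the third with Dox), with library totals (0.137) and with all 18 libraries in the fit (0.0847). Of 26 tested genes on this list these 3 passed, none downward (0.58% and 0.234% of all genes tested), and the median interaction was 0.38. With Dox 9 rose and without Dox none (6.65% and 0.794% of all genes tested). Hk2, the hexokinase of active glycolysis, went from 8.39, 10.7 and 5.79 CPM in DMSO to 26.9, 29.3 and 29.7 CPM with SR-3420 in restored cells, but its interaction of 1.68 (adjusted p = 0.108) did not pass. Hk2 was picked after its values were seen.

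Other positive genes of small p belong to no pathway list. The transcript 4931406C07Rik (chromosome 9, 15087781 to 15110892, minus strand), which overlaps Taf1d, had the smallest p of all genes. It gave 63.7, 50.6 and 65.7 CPM in DMSO and 110.1, 108 and 102 CPM with SR-3420 without Dox, against 95.7, 77.8 and 55.6 CPM in DMSO and 632, 543 and 538 CPM with SR-3420 with Dox. SR-3420 raised it in both states, by 0.82 (adjusted p = 0.0179) without Dox and 2.86 (adjusted p = 3.74e-12) with Dox, and the difference was 2.04 (SE 0.24, edgeR's adjusted p = 4.81e-05). Tmem140, a membrane protein gene that overlaps 3110062M04Rik, followed the same course: 53.7, 57.6 and 46.9 CPM in DMSO and 96.5, 79.0 and 84.6 CPM with SR-3420 without Dox, against 73.0, 75.7 and 104 CPM in DMSO and 507, 465 and 465 CPM with SR-3420 with Dox. Its changes were 0.72 (adjusted p = 0.0321) and 2.53 (adjusted p = 4.75e-12), with an interaction of 1.81 (SE 0.22, edgeR's adjusted p = 9.08e-05). Counts of a gene that overlaps another in the table, such as these 2, are uncertain. Sash1, a signalling scaffold, gave 73.7, 84.3 and 82.3 CPM in DMSO and 84.0, 70.7 and 87.0 CPM with SR-3420 without Dox, against 80.4, 78.9 and 83.4 CPM in DMSO and 325, 197 and 274 CPM with SR-3420 with Dox and an interaction of 1.71 (SE 0.24, edgeR's adjusted p = 0.00031), and its change without Dox was 0.01.

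Several further calls held in all 12 fits. Arfgap3, which acts on the coat of Golgi vesicles, gave 84.6, 91.4 and 82.3 CPM in DMSO and 72.8, 77.3 and 75.7 CPM with SR-3420 without Dox, against 79.4, 60.8 and 79.9 CPM in DMSO and 177, 164 and 153 CPM with SR-3420 with Dox, with an interaction of 1.34 (SE 0.20, edgeR's adjusted p = 0.00111). Dhrs9, a retinol dehydrogenase, gave 74.6, 81.5 and 65.7 CPM in DMSO and 89.4, 98.1 and 101 CPM with SR-3420 without Dox, against 111, 83.2 and 76.4 CPM in DMSO and 367, 286 and 291 CPM with SR-3420 with Dox and 1.38 (SE 0.22, edgeR's adjusted p = 0.00211). Hist1h2bc, a histone H2B gene, gave 19.1, 32.3 and 12.5 CPM in DMSO and 21.3, 17.2 and 25.0 CPM with SR-3420 without Dox, against 12.3, 12.8 and 17.4 CPM in DMSO and 59.2, 59.6 and 56.2 CPM with SR-3420 with Dox, and its 2.05 (SE 0.39, edgeR's adjusted p = 0.0107) came with low counts in the other 9 libraries. Bri3, which overlaps Baiap2l1, was at 1.41 (adjusted p = 0.00209), the adhesion receptor Pvr at 1.21 (adjusted p = 0.00585) and Fam178a at 1.08 (adjusted p = 0.0107). Phospho1, a phosphatase of phospholipid head groups that overlaps Abi3, was at 1.13 (adjusted p = 0.0107) and, of the 12 fits that left out 1 library, lost its call in that without the first SR-3420 library with Dox, where it was 0.98 (adjusted p = 0.0338). It also missed with library totals, at 0.98 (adjusted p = 0.0542). Among the called genes, the largest positive value was that of Dusp16, a phosphatase of MAP kinases, at 2.65 (SE 0.58, edgeR's adjusted p = 0.0237). Dusp16 gave 9.1, 14.1 and 8.34 CPM in DMSO and 6.51, 8.32 and 1.61 CPM with SR-3420 without Dox, against 8.88, 6.4 and 5.79 CPM in DMSO and 21.5, 32.3 and 27.6 CPM with SR-3420 with Dox. It was kept in 8 of 12 fits and was lowest in the third SR-3420 library without Dox. Gng10 (a G protein subunit) and Prkca (protein kinase C alpha) were at 1.99 (adjusted p = 0.0175) and 1.35 (adjusted p = 0.0187), each kept in 11 of 12 fits. Prkca differed in kind, since it gave 39.1, 42.2 and 45.9 CPM in DMSO and 28.4, 26.1 and 29.0 CPM with SR-3420 without Dox, against 25.7, 24.5 and 25.5 CPM in DMSO and 38.6, 44.4 and 45.0 CPM with SR-3420 with Dox, so that its ligand-treated restored cells were level with untreated depleted cells.

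The remaining 15 positive genes were kept in 2 to 9 of the 12 fits. Among them were Oxsr1, a kinase that responds to cell stress and osmotic change, at 1.14 (adjusted p = 0.0202), Ptpn23, a protein of endosomal sorting, at 1.27 (adjusted p = 0.0175), and Tom1, which also acts on endosomes, at 1.22 (adjusted p = 0.0306). Slc25a33, a mitochondrial carrier of pyrimidine nucleotides, was at 1.20 (adjusted p = 0.0272), and Impact, which restrains the amino acid sensor GCN2, at 1.63 (adjusted p = 0.0272). Impact gave 19.1, 43.6 and 43.8 CPM in DMSO and 32.6, 27.3 and 27.4 CPM with SR-3420 without Dox, against 20.7, 19.2 and 17.4 CPM in DMSO and 58.3, 41.4 and 53.2 CPM with SR-3420 with Dox, and 1 of its restored, ligand-treated libraries lay below 2 of the depleted libraries in DMSO. Ascc3, a helicase, was the positive gene that did not pass with Dox, and its change of -0.78 (adjusted p = 0.0803) without Dox did not pass either. It gave 38.2, 49.2 and 50.0 CPM in DMSO and 21.3, 33.9 and 23.4 CPM with SR-3420 without Dox, against 52.3, 53.3 and 44.0 CPM in DMSO and 69.0, 72.7 and 70.6 CPM with SR-3420 with Dox, so that both arms contributed to its interaction of 1.27 (SE 0.27, edgeR's adjusted p = 0.0228). Pnrc1, Dido1, Zfp655, Ppp1r9b, Triobp, Tmem183a, Adnp2, Rbm12b2 and Ifrd1 made up the rest, between 1.00 (Ifrd1) and 1.67 (Adnp2).

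**Figure D4:**
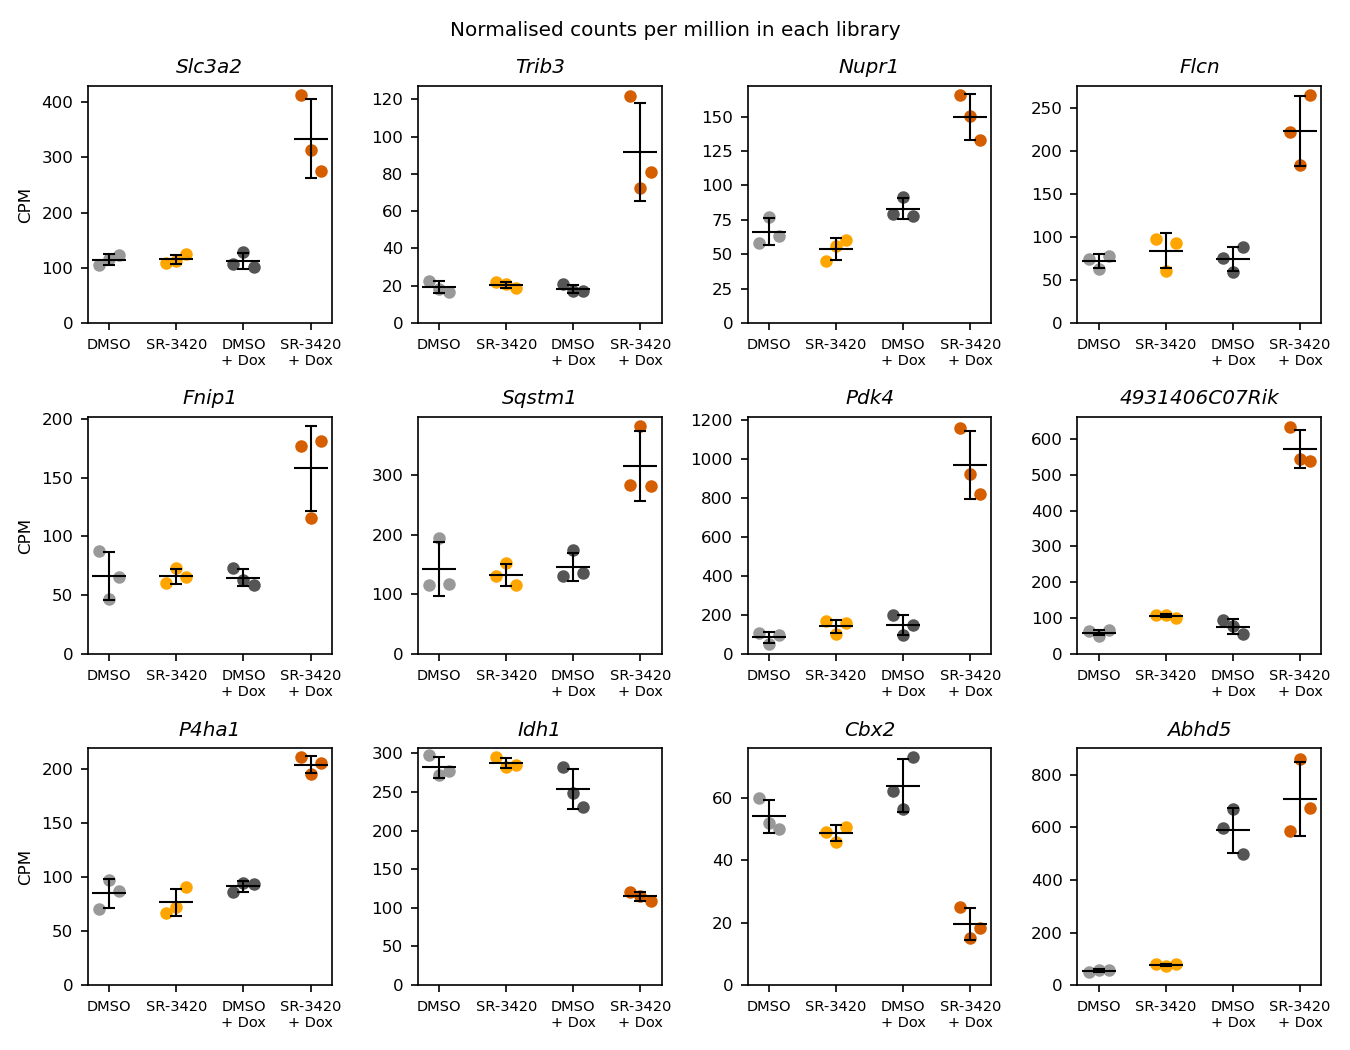
CPM (vertical axes from 0) of 12 named genes in each of the 12 libraries, with 3 points per group and the mean and SD as bars. Slc3a2, Trib3, Nupr1, Flcn, Fnip1, Sqstm1, Pdk4, 4931406C07Rik and P4ha1 are highest in SR-3420 with Dox, Idh1 and Cbx2 are lowest there (109 to 121 CPM and 15.1 to 25.1 CPM), and Abhd5 is higher in all 6 libraries with Dox.

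Of the genes that SR-3420 lowered in restored cells only, as the rule counts them, Idh1 had the smallest p. Idh1 (chromosome 1, 65205190 to 65233053, minus strand), the cytosolic NADP-dependent isocitrate dehydrogenase, gave 297, 271 and 277 CPM in DMSO and 295, 282 and 285 CPM with SR-3420 without Dox, against 282, 248 and 230.5 CPM in DMSO and 121, 115 and 109 CPM with SR-3420 with Dox. The 9 other libraries lay between 230.5 and 297 CPM and the restored, ligand-treated ones between 109 and 121, an interaction of -1.17 (SE 0.18, edgeR's adjusted p = 0.00111). Gstm1, a glutathione S-transferase, gave 260.2, 273 and 239.7 CPM in DMSO and 211, 232 and 256 CPM with SR-3420 without Dox, against 272, 284 and 280.3 CPM in DMSO and 120.1, 153 and 118 CPM with SR-3420 with Dox and passed without reaching a log2 size of 1, at -0.95 (SE 0.19, edgeR's adjusted p = 0.0135), with an adjusted p of 0.0514 without the third SR-3420 library without Dox. Idh1 and Gstm1 were the 2 of 25 tested NRF2 genes that passed, both downward (0.234% of all genes tested). The list's median interaction was -0.10. It was 0.01 without the first SR-3420 library with Dox or the second without Dox, and -0.33 without the second DMSO library without Dox, so its sign depends on single libraries. Hmox1, the heme oxygenase that NRF2 induces, was at 1.39 (adjusted p = 0.151) and did not pass. It did pass without the second DMSO library with Dox (adjusted p = 0.035) and with no filter on low counts (0.00244).

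Most sterol genes had a negative estimate, though the interaction passed in 1 of them. Of 34 tested sterol and lipogenesis genes, 1 passed, downward (0.234% of all genes tested), and 32 had a negative estimate. Over all genes tested, 48.7% had a positive estimate. The list's median interaction was -0.46 beside -0.01 over all genes. It was -0.27 without the first SR-3420 library with Dox. The list's median change was 0.03 without Dox, where none fell, and -0.43 with Dox, where 10 fell and none rose (3.82% and 6.65% of all genes tested). Mvd, of the mevalonate pathway, was just outside the limit, at -2.14 (adjusted p = 0.0509). Msmo1 and Fdps, of the same synthesis, were at -0.93 and -0.77, with adjusted p of 0.107 and 0.116. Msmo1 and Fdps were picked after their values were seen.

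The other negative genes have diverse roles. Cbx2, a Polycomb protein, gave 60.0, 52.0 and 50.0 CPM in DMSO and 49.1, 45.8 and 50.8 CPM with SR-3420 without Dox, against 62.2, 56.5 and 73.0 CPM in DMSO and 25.1, 15.1 and 18.4 CPM with SR-3420 with Dox and an interaction of -1.52 (SE 0.28, edgeR's adjusted p = 0.00778). Parp16, an ADP-ribosyltransferase of the endoplasmic reticulum, gave 75.5, 71.7 and 90.7 CPM in DMSO and 69.3, 84.4 and 74.1 CPM with SR-3420 without Dox, against 89.8, 98.1 and 82.2 CPM in DMSO and 28.7, 38.4 and 38.9 CPM with SR-3420 with Dox and -1.29 (SE 0.24, edgeR's adjusted p = 0.00778). Dgcr8, the partner of Drosha in microRNA processing, overlaps Trmt2a in the table and was at -1.14 (adjusted p = 0.0107). All 3 were called in every fit that left out 1 library. Marveld1, at -1.55 (adjusted p = 0.0202), kept its call in 11 of 12 fits, and Nudt6, Orm1 (an acute phase protein), Rhbdf1 (an inactive rhomboid) and Dgkz (a diacylglycerol kinase) were at -1.18, -1.50, -1.09 and -1.18, kept in 6, 7, 7 and 6. Tmem205, which overlaps Ccdc159, the lysosomal glucuronidase Gusb, the vitamin B6 phosphatase Pdxp and Cnot8, of the complex that shortens mRNA tails, were at -1.71, -1.43, -1.44 and -1.10, kept in 5, 4, 3 and 3. Among the called genes, the most negative interaction was that of Fcer1g, the gamma chain of Fc receptors, at -2.27 (SE 0.55, edgeR's adjusted p = 0.0445). Fcer1g gave 10.9, 11.2 and 20.8 CPM in DMSO and 27.2, 12.5 and 15.3 CPM with SR-3420 without Dox, against 18.3, 22.4 and 19.7 CPM in DMSO and 5.38, 7.07 and 3.07 CPM with SR-3420 with Dox. Only 3 of 12 fits kept its call. Fcer1g is on the list of macrophage markers, of which 2 of 12 had enough counts to be tested. The summed level of the list was 22.5 to 41.7 CPM in DMSO and 33.8 to 42.6 CPM with SR-3420 without Dox, and 35.9 to 40.5 CPM in DMSO and 18.8 to 28.3 CPM with SR-3420 with Dox, Fcer1g included, and its part in the result was not tested. Of its members, C1qa and C1qb were at 0 in all 12 libraries, Ptprc, Lyz2, Cd14 and Tyrobp had at most 1 count in a library, Emr1, Csf1r, Itgam and Mrc1 at most 7, and Cd68, the other one tested, had 4 to 32.

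Other stress and signalling lists had few or no calls. None of 17 tested markers of the unfolded protein response passed. Of them 14 had a positive estimate (48.7% of all genes tested) and 8 rose with Dox (6.65% of all genes tested). The list's median interaction was 0.61. Dnajb9, a chaperone of the endoplasmic reticulum on that list, was at 0.58 (adjusted p = 0.678). It was 0.31 without the second SR-3420 library with Dox and 0.77 without the first DMSO library without Dox. None of 14 tested cAMP targets passed (median 0.64, and 0.43 without the first DMSO library with Dox), and none of 17 clock genes did (median 0.42), with Arntl at 0.89 (adjusted p = 0.0751) and Cry1 at 0.76 (adjusted p = 0.463). Nr1d1 had 1 to 13 counts and was not tested. None passed among 16 heat shock genes (median 0.08, and -0.06 with library totals) and 13 p53 targets (median 0.05, and -0.09 with library totals). The heat shock median was -0.02 without the second and 0.19 without the third DMSO library without Dox, and the p53 median 0.03 without the third SR-3420 library with Dox and 0.32 without the second DMSO library without Dox. Interferon-stimulated genes were higher with Dox in DMSO, where 55 of 57 tested rose (1.18% of all genes tested), with a median of 2.67. None of them passed in the SR-3420 interaction, where their median was -0.21 and became 0.08 without the first SR-3420 library with Dox, 0.17 without the second SR-3420 library without Dox and -0.43 without the first DMSO library with Dox. Adipocyte markers (17 tested, median interaction 0.29) and fibroblast markers (11 tested, median -0.12) had no call. The adipocyte median was 0.12 without the first DMSO library without Dox, and the fibroblast median -0.31 without the third SR-3420 library with Dox and -0.06 without the third DMSO library with Dox.

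Genes that the study grouped by lipase inhibitors in a separate experiment were also looked up. Of the genes it described as depending strictly on lipolysis, 80 were tested, 8 passed and 7 were called, all positive (0.458% of all genes tested were called so), with a median interaction of 0.42. Of those it described as depending on lipolysis in part, 6 of 126 were called, and of those that the agonist raised whether or not lipolysis was blocked, 1 of 128 (medians 0.42 and 0.34). The study adds that SR-3420 also raised most genes of this last group, and that lipase inhibitors blocked that rise. Of the group whose response to the agonist was dampened by lipolysis, 0 of 60 were called (median 0.19, and 0.11 without the third SR-3420 library without Dox). The study also grouped genes on the libraries used here, and those counts are not independent of the interaction. In that grouping 7 of 119 tested genes were called in the group described as raised by ligand and agonist strictly through ABHD5, and 24 of the 119 rose with SR-3420 without Dox and 86 with Dox (0.794% and 6.65% of all genes tested). In its other groups 12 of 272, 0 of 92 and 0 of 244 were called, and all calls were positive.

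The dependence on ABHD5 was then set against that of ISO, which reaches ABHD5 through the β-adrenergic receptor. This comparison used all 18 libraries, and DMSO cancels from the difference of the 2 interactions. The difference was called for 26 genes with a higher and 40 with a lower value for SR-3420 (0.255% and 0.393% of 10178 genes tested), and the total of 66 became 25 without the first ISO library without Dox and 37 without the first SR-3420 library without Dox. The ISO interaction shares its DMSO libraries with that of SR-3420, and the difference shares the SR-3420 libraries, and the members were chosen by 1 of its terms, so their values are given side by side as a description, with no test. Idh1 had an ISO interaction of -0.04, and the difference was -1.13 (SE 0.20). Nupr1 likewise had 0.04 with ISO, and a difference of 1.12 (SE 0.24). Atp6v1g1 had an ISO interaction of 0.05, with a difference of 1.05 (SE 0.24). For Flcn, Slc3a2 and Sash1 the ISO interaction was 0.39, 0.73 and 0.82, and the differences were 0.996, 0.85 and 0.88. The genes 4931406C07Rik, Tmem140, Dhrs9, Pdk4 and Arfgap3 had ISO interactions of 2.94, 1.55, 1.61, 1.76 and 1.30, and their differences were -0.90, 0.26, -0.23, 0.21 and 0.04 with standard errors of 0.21 to 0.34.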

How the data were processed

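RNA was sequenced from 18 libraries (TRIzol, TruSeq2), of 3 independent experiments as its methods state. Reads were aligned by the authors with STAR 2.4.2a to mm9 and reduced to 1 read per position with HOMER, and the authors counted reads per gene with iRNA-seq and deposited raw counts. For 72.6% of 16536 intron-bearing genes the counted length given with the deposited counts came within 10% of the summed introns, and for 2.27% within 10% of the summed exons. Pre-mRNA answers sooner than mature mRNA, and deduplication by position can lower the highest counts.

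Genes that passed edgeR's filterByExpr (9821 of 12 libraries, 10178 of 18) were fitted with TMM factors and the quasi-likelihood test (edgeR 4.0.16, R 4.3.3), 1 mean per group, with Benjamini-Hochberg adjustment over all genes tested. Fold changes carry the spread between 3 libraries. CPM used TMM-scaled totals. DESeq2 1.42.0, limma-voom (3.58.1), other scalings, filters, limits and left-out libraries were alternatives. Promoter windows came from the NCBIM37 (mm9) genome. Groups came from the labels. The members, lists and motifs were chosen with earlier results of these data known. Named by rule were Abhd5, the 15 positive and 10 negative genes of smallest p, list members that passed, a panel of list genes and 3 genes in each direction of the comparison with ISO. Members outside that rule were named after their values were seen. The gene groups of the study were used only as gene lists, and no fold change or p-value of the authors was used. A few genes and 1 sequence that the rules would name are not reported here.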

Additional observations from a re-analysis of the deposited data

Results flagged for a closer look

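The response to SR-3420 differed between cells without and with Dox for 60 genes, by the test of the interaction itself. The SR-3420 and ISO interactions differed for 66 genes, again by a test of the difference. The 3 genes of smallest p in each direction were named by rule and none was among the 60. Dhrs3, a retinal reductase, differed by -1.64 (SE 0.21, edgeR adjusted p = 0.00012), Tmem120a by -1.41 (SE 0.19, edgeR adjusted p = 0.00012) and Acaa1b, a peroxisomal thiolase, by -2.04 (SE 0.31, edgeR adjusted p = 0.000917). Cyp2ab1 differed by 2.11 (SE 0.34, edgeR adjusted p = 0.00123), Runx1, a transcription factor, by 1.45 (SE 0.26, edgeR adjusted p = 0.00424) and Zfp949 by 4.71 (SE 0.89, edgeR adjusted p = 0.00761). A difference can come from either agent. With all 18 libraries, the SR-3420 and ISO interactions were 0.40 and 2.04 for Dhrs3, 0.16 and -1.29 for Runx1, and 2.47 and -2.24 for Zfp949. Zfp949 gave 1638, 97.9 and 496 CPM in the 3 SR-3420 libraries with Dox, so its replicates differed widely, and with limma-voom the difference was 3.78 (adjusted p = 0.0727).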

How the results depend on the processing

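The interaction count of 60 became 38 with library totals only, 105 with no filter on low counts and 14 at an adjusted p of 0.01. It ranged from 30 to 77 when 1 library was left out. SR-3420 without Dox gave 16 calls with DESeq2, 84 without a limit on fold change and 17 to 34 with 1 library left out (28 as reported). SR-3420 with Dox gave 200 calls with at least 10 counts in every library, 1028 without a limit on fold change and 265 to 347 with 1 library left out, and its share of raised genes was 53.5% with upper-quartile factors and 35.5% with library totals (66.5% as reported). Dox in DMSO gave 45 calls with at least 10 counts in every library and 81 to 106 with 1 left out. The difference from ISO gave 147 calls with no filter, 16 at an adjusted p of 0.01 and 25 to 78 with 1 library left out, and its share of higher calls was 10.5% with library totals (39.4% as reported). With the replicate number as a block, the interaction gave 140 calls (86 positive and 54 negative, all 60 among them) and the difference from ISO 142. Same-numbered libraries correlated at 0.043 to 0.273 in their deviations from the group means, 16 of 18 pairs over 0.1, against -0.221 to 0.081 for other pairs, and 11 of 12 libraries correlated best with their own number. The labels do not say what the number marks and not every pair was over 0.1, so the samples were taken to share only a number. With the block 8 named genes that had missed the threshold passed: Asns (1.70, adjusted p = 0.0023), Hmox1 (1.42, 0.00246), Plin2 (1.02, 0.000484), Ppara (1.56, 0.00419), Ppargc1a (1.10, 0.0217), Cidea (1.33, 0.0375), Arntl (0.89, 0.0186) and Zfp949 (2.28, 0.012). Of these, 6 also passed with no filter on low counts. In that fit the SE of Zfp949, whose replicates differed widely, was 0.23, where the reported fit gave 0.80. A pass with no filter can therefore understate the spread between replicates. Reversed were Gyk (-0.066 with upper-quartile factors, -0.141 with library totals, -0.012 with no filter, -0.206 to -0.018 in 7 fits that left out 1 library, with 0.378 at the highest), Angptl4 (0.083 without the second DMSO library without Dox, 0.058 without the first DMSO library with Dox, -0.479 at the lowest), Cyp2ab1 (-0.022 without the second SR-3420 library with Dox, 0.688 at the highest) and Runx1 (-0.0095 without the third DMSO library without Dox, 0.294 at the highest), none of which passed in the interaction. The causes were not tested. Over 61 results on named genes, 1242 of 1365 values kept direction and side of the threshold. With 689910 to 1956565 counts per library, genes of low count, such as Hilpda, Pck1 and Atf3, have wide errors, and an interaction that missed the threshold is not shown to be absent.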
